A study of Schmidtea mediterranea with 58 samples.

Results

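The transcript dd_Smed_v6_920_0_1, called *agat-1*, is 1 of the 28742 transcripts counted in planarian wounds after RNA interference of *equinox*. It was taken by its row number and read in all 58 libraries. The count table lists numbers only, so the pairing of this row with the name *agat-1* was given and could not be checked against a sequence here. Wounds that faced forward on post-pharyngeal fragments of *Schmidtea mediterranea*, strain CIW4, gave polyA RNA. Animals of both treatments received 8 dsRNA feedings and were cut 7 days after the last, by the labels, whereas the methods of the study give a shorter interval. *equinox* RNAi animals were fed dsRNA of *equinox* and control animals that of *unc-22*, which is a nematode gene, so controls were fed dsRNA too. Each library pooled 5 wounds, collected at 0, 3, 6, 16, 24 or 48 hours post amputation (hpa). There were 5 libraries for each treatment and time, except 4 for *equinox* RNAi at 0 hpa and 4 for control at 48 hpa. The labels do not say whether replicates came from separate animals, so p-values measure only the spread between these libraries.

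Planarian epidermis has no dividing cells of its own. Neoblasts, the dividing cells of the body, give rise to post-mitotic epidermal progenitors that move outward, switching from early markers such as *prog-1* to late ones such as *agat-1* before they enter the epidermis. The name *agat-1* comes from the likeness of its protein to vertebrate glycine amidinotransferase, the enzyme of the first step of creatine synthesis. Its transcript is widely used as a marker of late epidermal progenitors. In bulk RNA of a wound, fewer cells of a type and less RNA per cell cannot be told apart.

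Total counts ranged from 1312330 to 38053378, with a median of 15070578. *agat-1* held 746 to 23787 counts per library, with a median of 7981.5, or 0.0348% to 0.0801% of all counts. Levels are given as CPM, the count relative to the library total after scaling by TMM factors, which correct for differences in composition between libraries. In the library with the fewest *agat-1* counts, control replicate 3 at 3 hpa, the level was 506 CPM with an exact 95% Poisson interval of 470.1 to 543 CPM, which covers counting error only. The coefficient of variation between replicates ran from 6.41% to 23.1% over the 12 groups.

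The targeted transcript, dd_20318 (*equinox*), was read as a check of the labels. At 6, 16, 24 and 48 hpa it was lower in *equinox* RNAi, by log2 fold changes from -2.47 to -1.56. The highest adjusted p, at 6 hpa, was 0.04999 by edgeR, only just below the threshold of 0.05 used here. At 0 and 3 hpa 6 of the 9 libraries labelled *equinox* RNAi had more *equinox* than every control library of the same time. These were replicates 1 and 2 at 0 hpa, with 39.3 and 27.0 CPM against at most 7.58 CPM in control. At 3 hpa replicates 1, 2, 3 and 5 had 9.55, 31.8, 33.4 and 7.96 CPM against at most 6.10 CPM in control. For *agat-1*, the calls against 0 hpa and the comparisons of treatments at 0 and 3 hpa are given with and without these 6 libraries. So is the F-test over time in *equinox* RNAi. The interactions, the 24 and 48 hpa changes against 0 hpa, the exact tests and the group order are given only with them in. The *agat-1* levels of the 6 libraries, from 345 to 756 CPM, spanned those of the other libraries labelled *equinox* RNAi at these times.

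In wounds labelled *equinox* RNAi *agat-1* was higher at 3, 6 and 16 hpa than right after the cut, and its mean at 48 hpa lay between the early high values and the start. In control wounds it was higher from 6 to 24 hpa than at 0 hpa, and its mean at 48 hpa was below that of 0 hpa by less than the spread. At no time did the comparison of *equinox* RNAi with control pass the test.

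**Figure D1:**
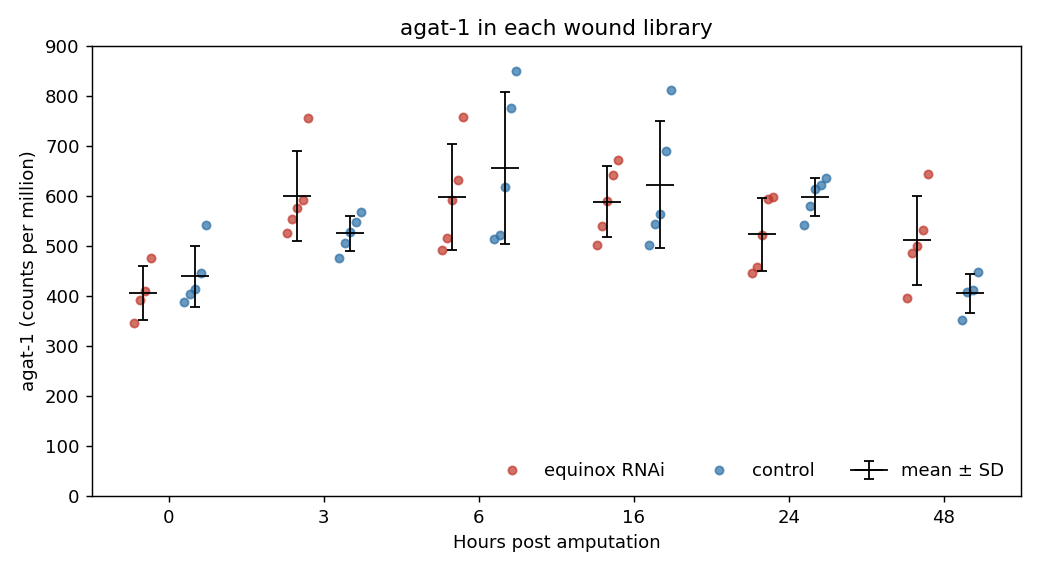
*agat-1* in CPM (vertical axis) by hours post amputation (horizontal axis), with 1 point per library, *equinox* RNAi left of control at each time, and bars for the mean ± SD of 4 or 5 libraries. *equinox* RNAi means are 406 CPM at 0 hpa, 598 CPM at 6 hpa and 512 CPM at 48 hpa, and control means are 439, 656 and 405 CPM at the same times.

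In wounds labelled *equinox* RNAi *agat-1* was at 345, 392, 409 and 477 CPM at 0 hpa and at 527, 554, 577, 592 and 756 CPM at 3 hpa. At 6 hpa the 5 libraries held 492, 517, 592, 633 and 758 CPM. Every library of 3 and 6 hpa thus lay above all 4 libraries of 0 hpa. At 16 hpa the values were 501, 539, 589, 642 and 673 CPM, also clear of the start. At 24 hpa they were 445, 457, 523, 593 and 598 CPM, and at 48 hpa 396, 487, 499.6, 532 and 643 CPM. At both late times the lowest values overlapped the highest of 0 hpa.

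Changes were tested in 1 edgeR quasi-likelihood model of all 12 groups. Adjustment was by Benjamini-Hochberg over 20129 transcripts, and an adjusted p below 0.05 passed. *agat-1* rose at 3 hpa, to 601 ± 90.0 CPM (SD, n = 5) against 406 ± 54.5 CPM at 0 hpa (SD, n = 4), in libraries labelled *equinox* RNAi. The log2 fold change was 0.57 (SE 0.142, adjusted p = 0.0208 by edgeR), where 1.37% of transcripts were called. At 6 hpa it was 0.56 (SE 0.142, adjusted p = 0.00827 by edgeR, 5.42% called). At 16 hpa it was 0.54 (SE 0.142, adjusted p = 0.00596 by edgeR, 12.2% called). At 24 and 48 hpa the log2 fold changes of 0.37 (95% interval 0.08 to 0.65) and 0.33 (0.05 to 0.62) did not pass after adjustment (adjusted p = 0.124 and 0.158 by edgeR, 5.96% and 6.71% called).

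Without the 6 libraries of high *equinox*, 2 libraries remained at 0 hpa and 1 at 3 hpa, and the lone library was assumed to vary like the other groups. The log2 fold changes against 0 hpa were then 0.57, 0.58 and 0.56 at 3, 6 and 16 hpa, and none passed (adjusted p = 1, 0.106 and 0.0684 by edgeR). The 3 hpa call was also lost without replicate 2, 3 or 5 at 0 hpa or replicate 3 at 3 hpa (adjusted p = 0.144, 0.0744, 0.066 and 0.112 by edgeR). It was lost too when both groups alone were fitted, without and with the replicate block (adjusted p = 0.0656 and 0.456 by edgeR). The 6 hpa call was lost without replicate 2 at 0 hpa (adjusted p = 0.0612 by edgeR) or replicate 1 at 6 hpa (adjusted p = 0.0511 by edgeR), and when the 5 *equinox* RNAi libraries whose title and time field disagree were dropped or moved to the time of the field (adjusted p = 0.061 and 0.0532 by edgeR). The 16 hpa call was kept with any 1 library left out.

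In control wounds *agat-1* was at 389, 404, 414, 446 and 543 CPM at 0 hpa and at 477, 506, 527, 549 and 568 CPM at 3 hpa. At 6 hpa the 5 libraries held 514, 522, 618, 777 and 851 CPM. The 6 hpa group reached the highest value of all 58 libraries, and its spread was also the widest, with a coefficient of variation of 23.1%. At 16 hpa the values were 502, 545, 565, 690.4 and 812 CPM. At 24 hpa they were 541, 579, 614, 622 and 636 CPM. At 48 hpa the 4 libraries held 353, 408, 412 and 449 CPM, all below the lowest library of 24 hpa.

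In control *agat-1* rose at 6 hpa, to 656 ± 152 CPM against 439 ± 61.5 CPM at 0 hpa (SD, n = 5 each). This is a log2 fold change of 0.58 (SE 0.133, adjusted p = 0.00237 by edgeR), in a comparison in which 8.93% of all transcripts were called. At 16 hpa the log2 fold change was 0.50 (SE 0.133, adjusted p = 0.00407 by edgeR, 18.5% of transcripts called). At 24 hpa it was 0.45 (SE 0.133, adjusted p = 0.00785 by edgeR, 33% called). In these comparisons 3, 4 and 4 of the 5 later libraries lay above the highest library of 0 hpa, so the groups overlapped.

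The 3 hpa level in control was 0.26 above that of 0 hpa on the log2 scale (95% interval -0.01 to 0.52, adjusted p = 0.309 by edgeR, 3.17% called), which did not pass. When only the groups of 0 and 3 hpa were fitted, the same difference was 0.29 and passed (adjusted p = 0.0183 by edgeR). At 48 hpa the control mean was 405 ± 39.6 CPM (SD, n = 4), and the log2 difference to 0 hpa was -0.12 (95% interval -0.40 to 0.17, adjusted p = 0.58 by edgeR, 29.5% called). The call at 6 hpa was lost when both groups alone were fitted with a replicate block (log2 fold change 0.56, adjusted p = 0.0974 by edgeR). Leaving out any 1 library kept the calls at 6, 16 and 24 hpa.

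Between neighbouring times 1 step of *agat-1* passed the test in the 8 steps from 3 hpa on, 4 in each treatment. That step was in control, where *agat-1* fell at 48 hpa, to 405 ± 39.6 CPM (SD, n = 4) against 599 ± 38.4 CPM at 24 hpa (SD, n = 5). The log2 fold change was -0.56 (SE 0.142, adjusted p = 0.00902 by edgeR, 5.63% of transcripts called), and the libraries of both times did not overlap. The same step in *equinox* RNAi was -0.03 (95% interval -0.30 to 0.23, adjusted p = 0.956 by edgeR, 2.93% called). The difference between these steps was not tested directly. The step of control at 6 against 3 hpa was 0.32 (adjusted p = 0.112 by edgeR, 9.52% called), and the other 5 steps lay between -0.17 and -0.01. Of all transcripts 12% and 3.9% were called in the control steps at 16 and 24 hpa, and 1.63%, 5.02% and 2.2% in the *equinox* RNAi steps at 6, 16 and 24 hpa.

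**Figure D2:**
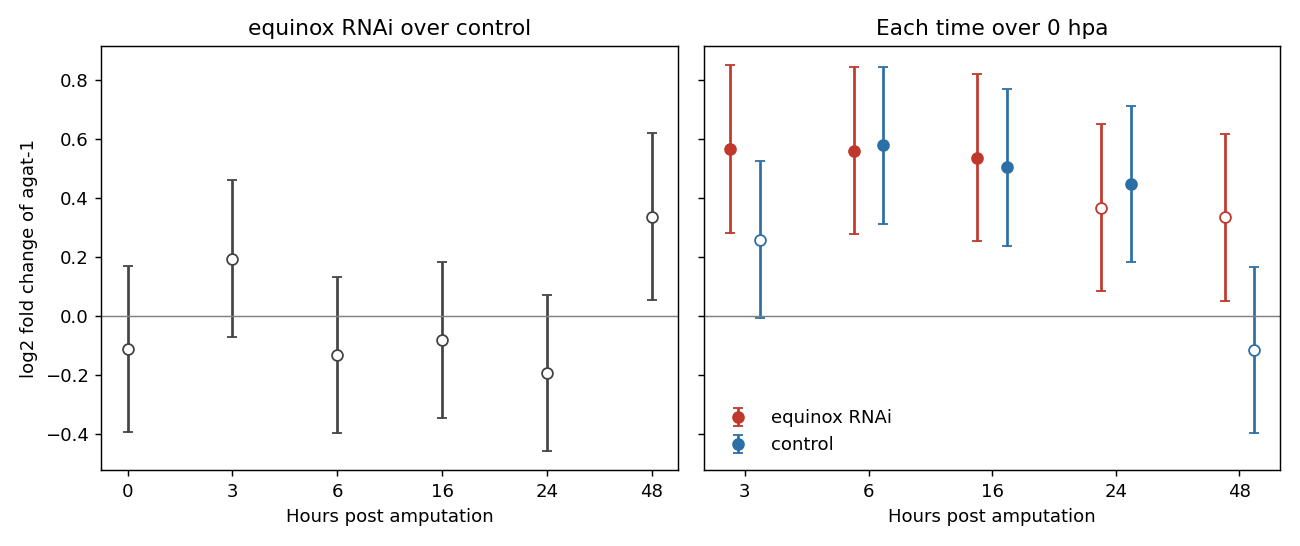
Log2 fold changes of *agat-1* (vertical axis) by hours post amputation (horizontal axis) from the edgeR model, for *equinox* RNAi over control on the left and each time over 0 hpa on the right, *equinox* RNAi in red and control in blue. Bars are 95% intervals and filled points passed an adjusted p of 0.05. No point on the left is filled, and on the right the filled points lie between 0.45 and 0.58.

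The comparison of treatments asks whether loss of *equinox* changed the level of this progenitor marker at the wound. At 48 hpa *agat-1* was at 396, 487, 499.6, 532 and 643 CPM in *equinox* RNAi, against 353, 408, 412 and 449 CPM in control. In 4 of the 5 *equinox* RNAi libraries the level was above the highest control library, and the fifth, replicate 5, lay inside the control range. Group means were 512 ± 89.5 CPM in *equinox* RNAi (SD, n = 5) and 405 ± 39.6 CPM in control (SD, n = 4). The log2 fold change was 0.34 (SE 0.141, 95% interval 0.05 to 0.62), with an unadjusted p = 0.0206 and an adjusted p = 0.0891 by edgeR, so it did not pass. In this comparison 17.5% of all transcripts were called. The exact two-sided permutation test of log2 CPM gave p = 0.0556 (0.143 adjusted over the 6 times), where the smallest p possible was 0.00794.

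This 48 hpa difference was positive in every fit tried and its call depended on the fit. Without *equinox* RNAi replicate 5 it was 0.42 and passed (adjusted p = 0.0341 by edgeR), and the exact permutation p was 0.0286. With only the groups of 48 hpa and a replicate block it was also 0.42 and passed (adjusted p = 0.0498 by edgeR). Without *equinox* RNAi replicate 4, the highest library, it was 0.24 (adjusted p = 0.252 by edgeR). Without control replicate 1, the lowest, it was 0.28 (adjusted p = 0.269 by edgeR).

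**Figure D3:**
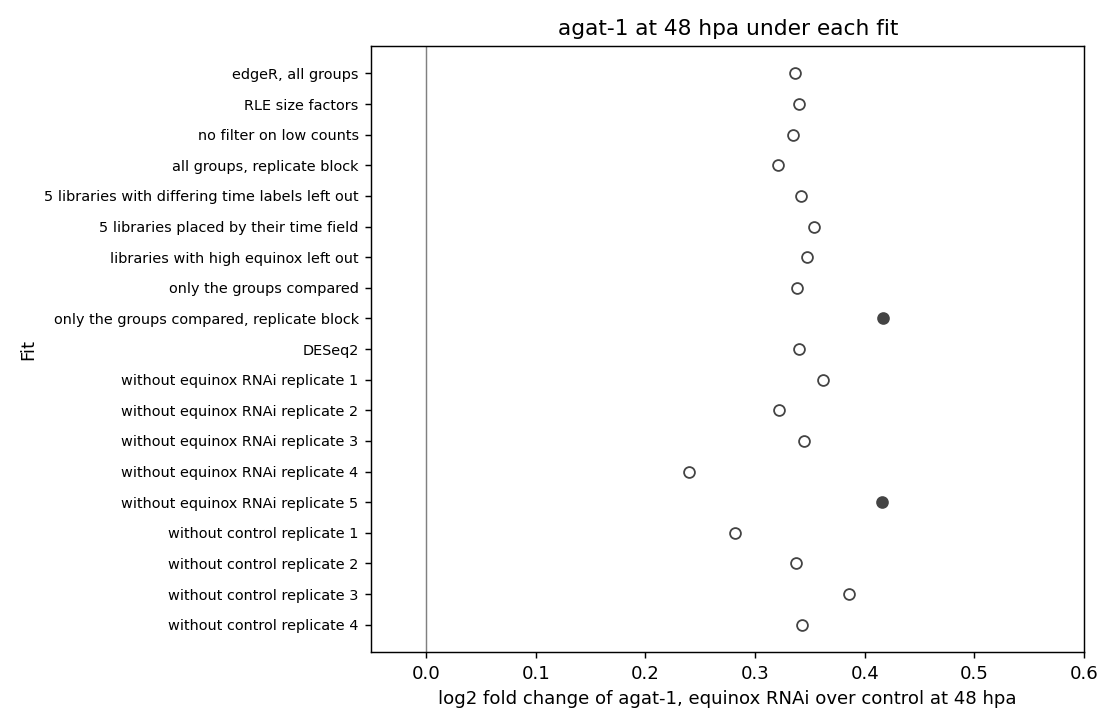
Log2 fold change of *agat-1* in *equinox* RNAi over control at 48 hpa (horizontal axis) under each fit (vertical axis): the edgeR model of all groups at the top, then 9 alternatives, then fits with 1 library left out. Filled points passed an adjusted p of 0.05. All points lie between 0.24 and 0.42, and 2 are filled.

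At the other times the differences were smaller in size. At 0 hpa *agat-1* averaged 406 ± 54.5 CPM in libraries labelled *equinox* RNAi (SD, n = 4) and 439 ± 61.5 CPM in control (SD, n = 5), and the log2 fold change was -0.11 (95% interval -0.40 to 0.17, adjusted p = 0.73 by edgeR, 1.42% called). At 3 hpa it averaged 601 ± 90.0 CPM in libraries labelled *equinox* RNAi and 525 ± 35.7 CPM in control (SD, n = 5 each), a difference of 0.19 (95% interval -0.07 to 0.46, adjusted p = 0.317 by edgeR, 11.3% called). At 3 hpa 3 of the 5 libraries labelled *equinox* RNAi were above the highest control library. With the 5 libraries of disagreeing title and time field placed by the field, the 3 hpa difference was 0.30 (adjusted p = 0.0726 by edgeR) and that at 48 hpa 0.35. Without the libraries of high *equinox* the values were -0.11 and 0.20 for these times (adjusted p = 0.877 and 0.679 by edgeR).

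At 6 hpa *agat-1* was at 598 ± 105 CPM in *equinox* RNAi and 656 ± 152 CPM in control (SD, n = 5 each), a difference of -0.13 (95% interval -0.40 to 0.13, adjusted p = 0.582 by edgeR, 7.66% called). At 16 hpa it was at 589 ± 70.7 CPM in *equinox* RNAi and 623 ± 127 CPM in control (SD, n = 5 each), a difference of -0.08 (95% interval -0.35 to 0.18, adjusted p = 1 by edgeR, 0.606% called). The sign of the 16 hpa difference turned without control replicate 5, to 0.03. At 24 hpa it was at 523 ± 72.3 CPM in *equinox* RNAi and 599 ± 38.4 CPM in control (SD, n = 5 each). This difference was -0.19 (95% interval -0.46 to 0.07, adjusted p = 0.806 by edgeR, 1.25% called), and 3 of the 5 *equinox* RNAi libraries were below the lowest control library. The exact two-sided permutation p was 0.421, 0.0635, 0.508, 0.675 and 0.0714 at 0, 3, 6, 16 and 24 hpa, and no adjusted value over the 6 times was below 0.143. Unadjusted, the exact p at 24 hpa was 0.0397 without *equinox* RNAi replicate 1 or replicate 4, and at 3 hpa 0.0317 without replicate 1. On CPM without TMM factors it was 0.0159 at 24 hpa, 0.0238 at 48 hpa and 0.857 at 3 hpa, where the difference was 0.015 in place of 0.19.

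Over all 6 times the F-test of any change was passed by *agat-1* in *equinox* RNAi (adjusted p = 0.0125 by edgeR, 21.6% of transcripts called) and in control (adjusted p = 5.16e-05 by edgeR, 56.6% called). Without the 6 libraries of high *equinox* the F-test in *equinox* RNAi did not pass (adjusted p = 0.21 by edgeR). The F-test for a difference between the time courses gave an unadjusted p = 0.0489 and an adjusted p = 0.227 by edgeR (6.02% called). The largest single interaction was at 48 hpa, where the change from 0 hpa was 0.45 higher in *equinox* RNAi on the log2 scale (SE 0.199, 95% interval 0.05 to 0.85, adjusted p = 0.216 by edgeR, 5.08% called). The interactions at 3, 6, 16 and 24 hpa were 0.31, -0.02, 0.03 and -0.08 (lowest adjusted p = 0.844 by edgeR, with 0.00497%, 0.0894%, 0.0248% and 0.233% called). A difference between the treatments' time courses of *agat-1* was thus not called.

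Ranked by mean log2 CPM, the 12 groups ran from control at 6 hpa through control at 16 and 24 hpa, *equinox* RNAi at 3, 6 and 16 hpa, control at 3 hpa and *equinox* RNAi at 24 and 48 hpa to control at 0 and 48 hpa and *equinox* RNAi at 0 hpa. No neighbours in this order differed beyond their spread in 11 exact two-sided permutation tests. The lowest p of these tests was 0.127 (0.960 adjusted), between *equinox* RNAi at 16 hpa and control at 3 hpa. Neighbours in a ranking have close means by construction, so these tests say nothing of groups further apart. Of those, control at 6 hpa was called higher than control at 0 hpa (adjusted p = 0.00237 by edgeR). Differences between the 12 group means made up 57.1% of the sum of squares of *agat-1* over the libraries.

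**Figure D4:**
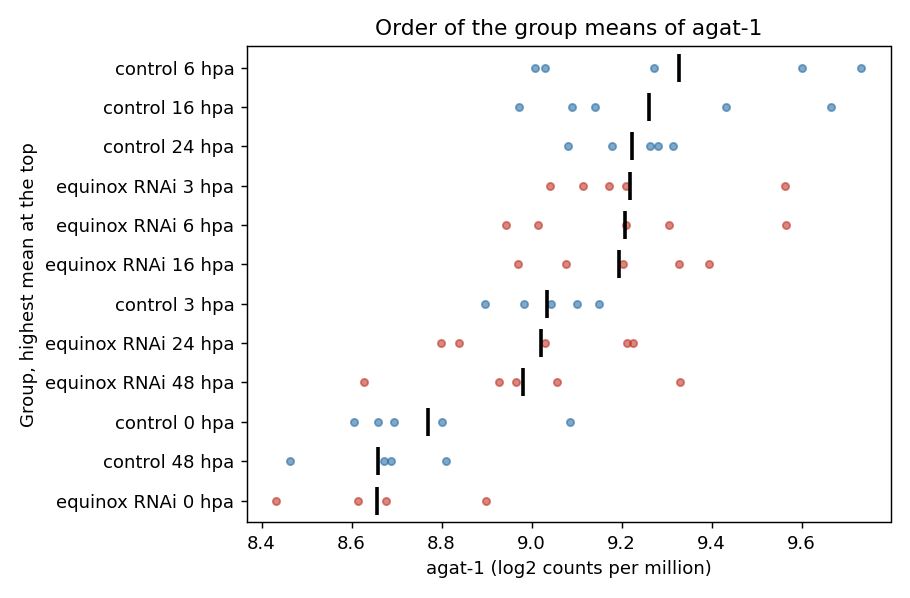
*agat-1* in log2 CPM (horizontal axis) for each library of the 12 groups (vertical axis), ordered by group mean with the highest at the top, *equinox* RNAi in red, control in blue and means as black ticks. Control at 6 hpa is at the top and *equinox* RNAi at 0 hpa at the bottom, and ranges of neighbouring groups overlap.

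Within groups, *agat-1* varied a little more than most transcripts of its abundance, at percentile 69 of the 200 nearest in mean log2 CPM. Its biological coefficient of variation in the edgeR model was 14.8%, against a median of 12.9% in the 200 transcripts nearest in mean log2 CPM and 15.7% over all tested. The highest libraries labelled *equinox* RNAi were replicate 3 at 3 hpa (756 CPM) and replicate 1 at 6 hpa (758 CPM). Of control they were replicates 4 and 5 at 6 hpa (777 and 851 CPM) and replicate 5 at 16 hpa (812 CPM). In this order their TMM factors were 0.912, 0.870, 0.936, 0.943 and 0.910, and a factor below 1 raises CPM. Before this scaling *agat-1* held 0.0689%, 0.0658%, 0.0726%, 0.0801% and 0.0739% of their counts. These shares were above those of every library of the same groups not named here.

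Transcripts that followed *agat-1* from library to library were looked for among 13064 others with a mean of at least 50 counts. The measure was Pearson's r of log2 CPM over all 58 libraries, which share their time groups and scaling, and it is a description only. The median r over these transcripts was 0.02 and the 99th percentile 0.67. dd_899 stood first with r = 0.97, followed by dd_1943 (0.84), dd_218 (0.82), dd_1817 (0.82) and dd_775 (0.82). These transcripts carry no name in the tables used here, and are given by number. By r in *equinox* RNAi libraries alone 3 of them were among the first 20, and by r in control libraries alone or by Spearman's rho all 5 were.

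dd_899 followed *agat-1* closely in both treatments, with r = 0.95 in *equinox* RNAi and 0.99 in control. The SD of the log2 ratio of dd_899 to *agat-1* over the 58 libraries was 0.07, against an SD of 0.29 for *agat-1* itself. Its group means in *equinox* RNAi were 466, 665, 700.4, 695, 583 and 578 CPM from 0 to 48 hpa, and in control 512, 589, 797, 731, 672 and 467 CPM. At 48 hpa dd_899 differed by 0.31 between *equinox* RNAi and control (adjusted p = 0.122 by edgeR), and in control it fell at 48 against 24 hpa, by 0.53 on the log2 scale (adjusted p = 0.0161 by edgeR). dd_899 was picked as the transcript with the highest r, so changes like those of *agat-1* follow from that choice and are a description. Whether reads were shared between dd_899 and *agat-1* was not tested, since no transcript sequence was used.

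Among the other 4, dd_218, dd_1943 and dd_1817 rose in control at 6 against 0 hpa, with log2 fold changes of 0.92, 0.54 and 0.47 (adjusted p = 0.00101, 0.0109 and 9.84e-05 by edgeR), and dd_775 was at 0.15 (adjusted p = 0.557 by edgeR). At 48 hpa none of these 4 passed between *equinox* RNAi and control, with log2 fold changes from -0.01 to 0.54. At 3 hpa dd_218 was higher in libraries labelled *equinox* RNAi (0.69, adjusted p = 0.0192 by edgeR, 11.3% of transcripts called). At 6 hpa dd_1817 was lower in *equinox* RNAi (-0.27, adjusted p = 0.0364 by edgeR, 7.66% called). The transcripts that ran most against *agat-1* were dd_11062 (r = -0.82), dd_2201 (r = -0.79) and dd_5740 (r = -0.78). In control dd_11062 fell by 0.87 at 6 against 0 hpa (adjusted p = 0.0211 by edgeR). It rose by 1.08 at 48 against 24 hpa (adjusted p = 0.00258 by edgeR). Each change was opposite in sign to that of *agat-1*. All these transcripts were chosen by their r with *agat-1* in the same libraries. Changes like or opposite to those of *agat-1* follow in part from that choice, and their p-values are not separate support.

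**Figure D5:**
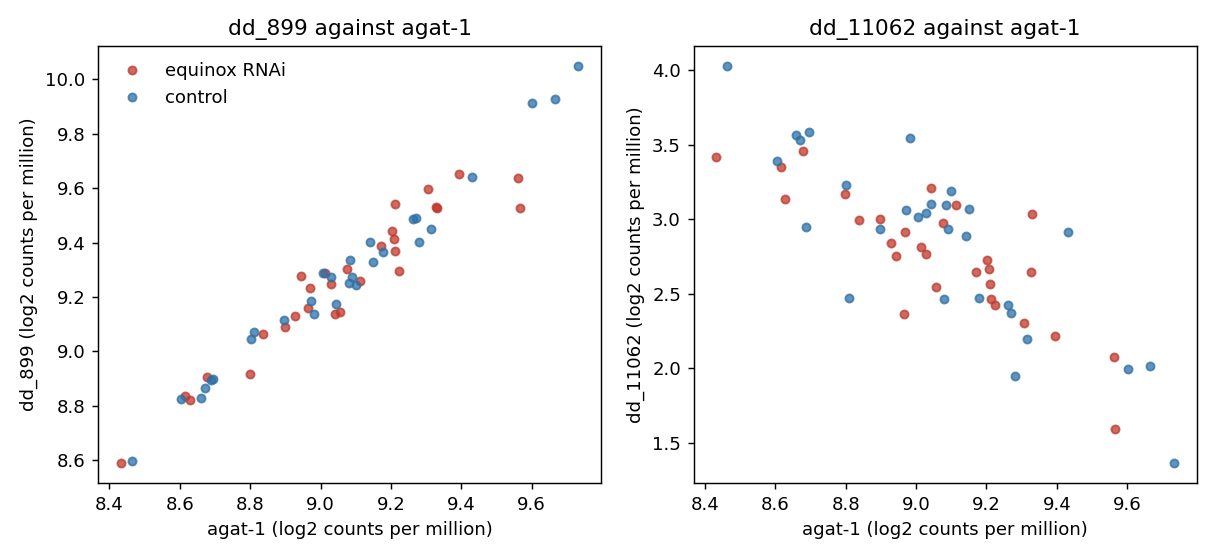
Log2 CPM of dd_899 (left) and dd_11062 (right) on the vertical axes against *agat-1* on the horizontal axes, with 1 point per library, *equinox* RNAi in red and control in blue. Pearson's r over the 58 libraries is 0.97 for dd_899 and -0.82 for dd_11062.

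When group means were removed, so that only differences between replicates remained, dd_899 (r = 0.96), dd_646 (0.94), dd_1988 (0.93), dd_2611 (0.93) and dd_1943 (0.93) were most like *agat-1*. They were picked for the highest r, so they lie above the 99th percentile, 0.87, by construction. For dd_1988 and dd_2611 the r over group means was 0.06 and 0.25. dd_646 differed from *agat-1* at 48 hpa in control, where it was 0.64 above 0 hpa (adjusted p = 0.00828 by edgeR). Between treatments at 48 hpa dd_2611 was higher in *equinox* RNAi (0.36, adjusted p = 0.0292 by edgeR). There dd_646 (-0.14) and dd_1988 (0.29) did not pass. The targeted transcript *equinox* had an r of 0.09 with *agat-1* over all 58 libraries. RNAi itself changed the level of *equinox*, so this r does not show whether the transcripts moved together in control. Control means of *equinox* from 0 to 48 hpa were 6.03, 5.19, 7.89, 15.1, 9.97 and 6.92 CPM. Those of *agat-1* were 439, 525, 656, 623, 599 and 405 CPM. A relation in control alone was not tested.

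Markers of other cells in the wound were read from lists of transcripts by their best human protein match. These matches come from 1 of 2 annotation tables that disagree row by row, and were not checked against sequence. The summed level of the 7 muscle genes moved with *agat-1* between replicates (r of deviations from group means 0.76 over 58 libraries). At 6 hpa in control it was highest in replicates 4 and 5, where *agat-1* was highest too. This was not particular to muscle genes. The summed cell division genes (184 and 209 CPM) and neural genes (445 and 431 CPM), described below, were also highest in these replicates. Summed cilium genes were lowest in replicate 4 (277 CPM) and highest in replicate 5 (442 CPM). The summed level of the muscle genes is given next for 48 hpa. This muscle sum ranged from 1154 to 1632 CPM in *equinox* RNAi and from 789.5 to 1308 CPM in control at 48 hpa, and no member was at 0 in any library. Most of this sum lay on dd_1070, matching the collagen COL2A1, with 906 ± 128 CPM in *equinox* RNAi (SD, n = 5) and 622 ± 180 CPM in control (SD, n = 4) at 48 hpa, and dd_1006, matching the calcium pump ATP2A2, with 371 ± 57.7 and 426 ± 66.4 CPM in the same groups. Neither of these 2 passed. Of the 7 muscle genes 2 were higher and 0 lower in *equinox* RNAi at 48 hpa, where 8.07% of all transcripts were higher and 9.46% lower. The 2 were dd_10318, matching the Z-disc protein LDB3 (log2 fold change 1.29, adjusted p = 3.0e-09 by edgeR), and dd_10174, matching the actinin ACTN2 (0.67, adjusted p = 0.000491 by edgeR). The median of the 7 was 0.18, against 0.00 over all transcripts. The part of these transcripts in the level of *agat-1* was not tested.

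Cell division genes in planarians mark neoblasts. Of 12 listed 7 passed the filter on low counts, and of these 3 were lower and 0 higher in *equinox* RNAi at 48 hpa (9.46% and 8.07% over all transcripts), with a median log2 fold change of -0.18. The 3 match AURKC, a kinase of dividing cells, CDC20, an activator of the anaphase-promoting complex, and RNASEH2A, which removes RNA from DNA (log2 fold changes -0.60, -0.59 and -0.60, adjusted p = 0.00874, 0.000362 and 1.64e-06 by edgeR). The most abundant members did not pass, dd_10119 matching the helicase BLM at -0.16 and dd_10448 matching ANAPC1 at 0.12. At 48 against 0 hpa 0 of the 7 passed in *equinox* RNAi, with a median of 0.04, where 6.71% of all transcripts were called. In control 5 of the 7 rose, with a median of 0.48, where 14.7% of all transcripts rose and 29.5% were called. For *agat-1* neither of these comparisons passed. The r of deviations of this list with *agat-1* was 0.66.

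Cilium genes serve the ciliated cells of the mature epidermis and of the excretory system. Of 27 listed 18 passed the filter, and 2 were higher and 0 lower in *equinox* RNAi at 48 hpa, with a median of 0.13, a count near the 8.07% of all transcripts that were higher. The 2 were its most abundant members, dd_10425, matching the dynein chain DNAH10 (0.37, adjusted p = 0.0346 by edgeR), and dd_10638, matching the ciliary transport protein IFT172 (0.29, adjusted p = 0.0276 by edgeR). Neither passed when the 48 hpa groups alone were fitted, where 0 of the 18 were called higher. In control at 6 against 0 hpa, where *agat-1* rose and 8.93% of all transcripts were called, 0 of the 18 passed, with a median of 0.03. Of 11 neural genes 1, dd_10048 matching the glutamate receptor GRIA4, was higher in *equinox* RNAi at 48 hpa and 0 were lower, with a median of 0.19, again near the 8.07% over all transcripts. It did not pass with the replicate block or when the 48 hpa groups alone were fitted. Their most abundant members, dd_1019 matching the synaptic phosphatase SYNJ1 and dd_10116 matching the scaffold SHANK3, were at 0.20 and 0.19 and did not pass. The r of deviations with *agat-1* was 0.52 for the cilium list and 0.46 for the neural list.

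The genes of guanidino compounds, the pathway that amidinotransferases feed, gave no test. The list held 3 transcripts, dd_101351 with a phosphagen kinase domain, dd_103755 matching the creatine kinase CKB and dd_102081 matching the arginase ARG1. All 3 were under the filter, at a mean of 0.02 CPM, and were at 0 in 45, 40 and 43 of the 58 libraries. The list is incomplete, so the 3 do not show the level of the pathway in these wounds. The summed share of 8 mitochondrial transcripts had an r of deviations with *agat-1* of -0.03. At 48 hpa 3 of the 8 were lower and 0 higher in *equinox* RNAi (9.46% and 8.07% over all transcripts), with a median log2 fold change of -0.56. The 3 were dd_258, the most abundant (-0.55, adjusted p = 0.0227 by edgeR), dd_297 (-0.55, adjusted p = 0.00015 by edgeR) and dd_753 (-0.91, adjusted p = 0.000354 by edgeR). The next in abundance, dd_505, was at -0.57 and did not pass (adjusted p = 0.126 by edgeR).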

How the data were processed

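Counts per transcript were deposited without normalization. By the labels and methods the authors trimmed reads, mapped them to the dd_Smed_v6 transcriptome with Bowtie and summed counts per transcript, and the processing notes name cutadapt 1.8, Bowtie 1.2 and SAMtools 1.6. From these counts, edgeR 4.0.16 in R 4.3.3 fitted 1 robust quasi-likelihood model of 12 groups (TMM, filterByExpr with a minimum count of 10), which kept 20129 of 28742 transcripts and 99.87% to 99.93% of the counts of a library. Log2 CPM used a prior count of 2. For 5 *equinox* RNAi libraries the title and the time field name different times, and titles were followed. No 2 replicates agreed within sampling noise (lowest chi-square per degree of freedom 2.85). Code was tested on simulated data.

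*agat-1* and the lists were chosen with earlier results of these data known. Named transcripts are the 5 most and 3 least like *agat-1*, the 5 most alike in deviations from group means, every guanidino gene and the 2 most abundant of each list; list members that passed are named too. Protein matches come from the annotation columns of a supplementary table held in part, so lists are incomplete. The same columns of a second such table name other proteins for nearly all shared transcripts and were not used, so the identity of list members is uncertain. No sequence was used. Columns of the authors' own comparisons were not used. Same-numbered replicates deviated together (every r over 0.1) in 2 of 16 comparisons, *equinox* RNAi against control at 16 hpa and *equinox* RNAi at 16 against 0 hpa. In both the replicate block changed no call. Alternatives were DESeq2 1.42.0, RLE factors, no filter, only the groups compared, the replicate block, other placements of the 5 libraries and each library left out. Leaving out the libraries of high *equinox*, and the scaling of the order, were added after seeing the data.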

Additional observations from a re-analysis of the deposited data

Results flagged for a closer look

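In 24 groups checked, of *agat-1* and of *equinox*, 2 had a library far from the others, and chance gives about 1 in 20 groups. For *agat-1* it was replicate 3 at 3 hpa of those labelled *equinox* RNAi, with 756 CPM where the next library had 592 CPM. This library also had the highest *equinox* level of its group, 33.4 CPM. For *equinox* it was control replicate 5 at 16 hpa, with 19.5 CPM where the next had 14.7 CPM. There *agat-1* was highest of its group as well, at 812 CPM. Both libraries also had the lowest TMM factor of their groups (0.912 and 0.910). Before this scaling their *agat-1* shares of all counts, 0.0689% and 0.0739%, were already the highest of their groups. Their summed muscle genes (1690 and 1931 CPM) and cilium genes (386 and 419 CPM) were the highest of their groups too. Over all 58 libraries *equinox* had an r of 0.09 with *agat-1*. This r includes the change of *equinox* by RNAi and does not describe control wounds alone. What set these libraries apart was not tested.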

How the results depend on the processing

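Of 573 values of *agat-1* under alternatives, 521 kept direction and side of the threshold. With the 5 libraries of differing time labels left out, *equinox* RNAi at 6 against 0 hpa was 0.46 on the log2 scale and did not pass, and *equinox* RNAi at 16 against 6 hpa (0.039), at 48 against 24 hpa (0.044) and the interaction at 16 hpa (-0.0061), none of them called, turned sign. Placed by their time field, the same 4 values were 0.42, 0.012, 0.048 and -0.073. With no filter *equinox* RNAi at 6 against 3 hpa, not called, was 0.0039. Without the libraries of high *equinox* that step was 0.0092, *equinox* RNAi at 3, 6 and 16 against 0 hpa was 0.57, 0.58 and 0.56 and did not pass, nor did its F-test (F = 2.48). With only the groups compared control at 3 against 0 hpa passed (0.29) and *equinox* RNAi at 3 against 0 hpa did not (0.56). With only the groups compared and a replicate block, *equinox* RNAi against control at 48 hpa (0.42), control at 3 against 0 hpa (0.30) and *equinox* RNAi at 24 against 0 hpa (0.32) passed, and control at 6 against 0 hpa (0.56) and *equinox* RNAi at 3 against 0 hpa (0.56) did not. With all groups the replicate block changed no call of *agat-1*. In none of the 16 comparisons checked did every sample correlate best with its own number. In exact tests on CPM without TMM factors the differences at 24 and 48 hpa, -0.19 and 0.29, passed unadjusted, and that at 3 hpa was 0.015 in place of 0.19.

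With each library left out in turn, *equinox* RNAi over control ran from -0.15 to 0.033 at 16 hpa and 0.24 to 0.42 at 48 hpa. *equinox* RNAi against 0 hpa ran from 0.47 to 0.65 at 3 hpa and from 0.46 to 0.65 at 6 hpa. Interactions, none called, ran from -0.12 to 0.092 at 6 hpa, -0.055 to 0.15 at 16 hpa and -0.17 to 0.0070 at 24 hpa. Differences in the exact tests ran from 0.10 to 0.23 at 3 hpa, -0.14 to 0.035 at 16 hpa, -0.25 to -0.15 at 24 hpa and 0.24 to 0.41 at 48 hpa. Of 159 counts of transcripts called, 35 moved by over 1.5 times, 27 of them in fits of only the groups compared; at 48 hpa such a fit called 1683 transcripts between treatments against 3528 with all groups. The causes were not tested. The 3 guanidino genes listed, at 0 in most libraries, were under the filter and were not tested.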

Other observations

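The 5 *equinox* RNAi libraries whose title and time field differ are the replicates numbered 1 from 3 hpa on. The library titled 3 hpa has a time field of 0 hpa and held 527 CPM of *agat-1*, and that titled 6 hpa has a field of 3 hpa and held 758 CPM. The library titled 16 hpa has a field of 6 hpa and held 642 CPM. Those titled 24 and 48 hpa have fields of 16 and 24 hpa and held 598 and 487 CPM. Placed by the time field, the difference between *equinox* RNAi and control at 48 hpa was 0.35 on the log2 scale (adjusted p = 0.101 by edgeR).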
